A study of Mus musculus with 16 samples.

Results

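A set of 10 genes of the bone morphogenetic protein (BMP) pathway are described here in sorted brain endothelial cells (bECs): the ligands Bmp4 and Bmp6, the secreted antagonists Grem1 and Mgp, the receptors Acvrl1 and Bmpr2, the inhibitory SMADs Smad6 and Smad7, and the response genes Id1 and Id3. They were chosen by symbol, are 10 of the 37003 genes in the count table, and all 10 passed the filter on low counts. The study had already named some of them, Bmp4 and Grem1 included, for these same libraries. BMP ligands are secreted dimers that bring together type I and type II serine/threonine kinase receptors on the cell surface. The receptors phosphorylate SMAD proteins, which enter the nucleus with a common partner and activate genes such as Id1 and Id3, while Smad6 and Smad7 are induced as feedback inhibitors. Secreted antagonists such as gremlin 1 and matrix Gla protein bind ligands and keep them from their receptors. In blood vessels this pathway is best known through ACVRL1, endoglin and BMPR2, whose loss underlies inherited vascular diseases in humans.

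RNA was sequenced from 16 libraries of DAPI-, CD45-, CD31+ cells of adult mouse brain, 4 in each of 4 groups, and each library pooled tissue of 2 to 4 mice. Both sexes were used in the study, and the sexes in a pool were not known here. CTRL mice carried floxed alleles of Yap and Wwtr1 (Yapfl/fl and Wwtr1fl/fl; Wwtr1 encodes TAZ) and no Cre. Their YT-iKO littermates carried the same floxed alleles with 1 copy of the tamoxifen-inducible Cre Pdgfb-iCreER-eGFP, named Pdgfb-iCreERT2 in the series record. This Cre is driven by the Pdgfb promoter and therefore acts in endothelium. All mice, controls included, received tamoxifen before surgery. They then underwent a sham operation or 30 min of occlusion of the left middle cerebral artery (MCAo) with reperfusion, and bECs were taken 72 h later, from the ischemic territory in the MCAo mice, so that the tissue taken cannot be told apart from the operation. Whether the pools are independent litters or days is not labelled, so p-values measure the spread between pools.

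The libraries held 11418262 to 23074547 counts. Yap1 was lower in YT-iKO bECs than in CTRL by a log2 fold change of -1.18 ± 0.22 (SE) after sham and -1.17 ± 0.22 after MCAo, and Wwtr1 by -1.88 ± 0.28 at both (edgeR, adjusted p from 0.0036 to 0.048, n = 4 libraries per group), so that both targeted genes matched the labels. Each of the 10 endothelial markers was detected in every library, with a summed level of 9517 to 20480 CPM (read counts scaled to a common library total). Olfactory, vomeronasal and taste receptor genes, which bECs are not known to use, were taken as a gauge of evenly spread background reads. Their density over 1267 genes ran from 0.0220 CPM per kb of exon in YT-iKO MCAo replicate 4 to 0.547 in YT-iKO MCAo replicate 2, and this matters for the members of low level. CPM is scaled by edgeR's TMM factors, a change counts as called at an adjusted p under 0.1, which is the threshold the study used, and exact tests are two-sided permutation tests that run through every one of the 70 ways to split 8 libraries into 4 and 4 and can go no lower than p = 0.0286. Of the 40 exact tests of 10 members in 4 comparisons, 8 gave that smallest p, and these are not adjusted for their number.

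Promoter windows of Bmp4 and Grem1 are shown because these 2 members had the most similar course of a ligand and an antagonist over the groups, and because in both genes the 250 bases before the start site lie outside the annotated exons of the gene itself. They were taken from RefSeq on GRCm38.p6, on the minus strand in both cases, chr14:46390670-46390919 for Bmp4 and chr2:113758649-113758898 for Grem1. Each is written 5′ to 3′ towards the gene, and capitals mark a match to a searched motif.
Bmp4: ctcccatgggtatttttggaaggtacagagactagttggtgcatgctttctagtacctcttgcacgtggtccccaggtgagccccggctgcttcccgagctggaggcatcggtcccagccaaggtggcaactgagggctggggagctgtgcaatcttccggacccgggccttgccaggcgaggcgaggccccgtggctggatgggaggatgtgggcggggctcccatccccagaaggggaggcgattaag
Grem1: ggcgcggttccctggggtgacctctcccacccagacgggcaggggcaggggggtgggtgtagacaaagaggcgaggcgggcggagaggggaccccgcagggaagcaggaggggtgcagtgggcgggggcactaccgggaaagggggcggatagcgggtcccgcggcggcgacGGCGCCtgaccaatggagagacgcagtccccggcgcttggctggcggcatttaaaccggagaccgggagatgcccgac
The 2 motifs below were searched on both strands and do not overlap each other: GGAATG, the core bound by TEAD factors, the DNA-binding partners of YAP and TAZ, and GGCGCC, a GC-rich element bound by SMADs. The TEAD core was in neither window, and 12.6% of 32851 promoter windows of this length hold it. Grem1 held GGCGCC with its first base 78 bases before the start site (position -78), and 9.59% of windows hold that motif. Of the other members, Bmp6, Smad6, Id3 and Bmpr2 had a window in the table; Id3 held the TEAD core at -203 and Bmpr2 held GGCGCC at -105. The windows of Bmp6, Id3 and Bmpr2 lie wholly within exons that GENCODE M21 annotates to the same gene (250 of 250 bases), and positions are counted from the RefSeq start. These are matches of letters in a short window and say nothing of binding.

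The levels of the 10 members spanned a wide range. On the scale of CPM per kb of exon, the mean over 16 libraries was highest for Acvrl1 at 139.5 ± 35.5 (SD) and Id1 at 134.8 ± 39.4. These were followed by Mgp at 85.8 ± 72.1, Id3 at 70.2 ± 18.8, Bmpr2 at 68.6 ± 16.6 and Smad7 at 54.2 ± 10.8. Neighbours in that order differed by less than the larger of their SDs. The place of Mgp depended on the group, as it was at 35.3 and 34.3 CPM per kb in CTRL and YT-iKO bECs after sham, below Smad7 at 59.3 and 54.5, and at 125.1 and 148.3 after MCAo. Smad6 lay lower, at 22.7 ± 6.75, and the ligands and gremlin were far below, with Bmp4 at 1.49 ± 0.98, Bmp6 at 1.24 ± 0.55 and Grem1 at 0.474 ± 0.383 CPM per kb. Receptors, feedback inhibitors and response genes were thus well measured in these cells, whereas both ligands and Grem1 rest on 9 to 138 reads per library.

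In CTRL bECs Grem1 rose after MCAo (edgeR, adjusted p = 0.0997), whereas Bmp4 did not pass the test (0.131) although its sham and MCAo libraries did not overlap. In YT-iKO bECs the sham and MCAo libraries overlapped for both genes, but the difference of the response between genotypes was not called for either (adjusted p = 1.00). Bmp6 was lower in YT-iKO bECs over both operations (adjusted p = 0.0556). Bmp4 encodes a BMP ligand with roles from early embryonic patterning to inflamed endothelium. Its level in the 4 CTRL sham libraries was 2.43, 2.11, 1.94 and 3.57 CPM, and in the 4 CTRL MCAo libraries 8.77, 6.41, 4.48 and 6.99 CPM. In YT-iKO bECs it was 2.41, 1.41, 2.01 and 1.52 CPM after sham and 3.66, 2.01, 2.07 and 1.87 CPM after MCAo. Every CTRL MCAo library thus lay above every library of the other 3 groups, which overlapped one another.

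The mean level of Bmp4 was 2.51 ± 0.74 CPM (SD, n = 4) after sham and 6.66 ± 1.77 CPM after MCAo in CTRL bECs. The log2 fold change was 1.40 ± 0.33 (SE), a fold of 2.64, with an adjusted p of 0.131 by edgeR, just outside the threshold, and an exact permutation p of 0.0286. In YT-iKO bECs the same values were 1.84 ± 0.46 and 2.40 ± 0.84 CPM, with a log2 fold change of 0.39 ± 0.34 (adjusted p of 1.00 by edgeR and exact p of 0.257), which was 0.05 without YT-iKO MCAo replicate 1. Between genotypes after MCAo, Bmp4 differed by a log2 fold change of -1.46 ± 0.33 (adjusted p = 0.241, exact p = 0.0286), and after sham by -0.45 ± 0.34 (adjusted p = 0.990, exact p = 0.171). With 1 library left out the value after sham ran from -0.60 to -0.23. Over both genotypes together Bmp4 rose after MCAo by 0.90 ± 0.24 on the log2 scale (adjusted p = 0.0900 by edgeR). The test of whether the MCAo response differed between genotypes gave -1.01 ± 0.47, with an unadjusted p of 0.0435 and an adjusted p of 1.00, so that this difference did not pass over all genes.

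**Figure D1:**
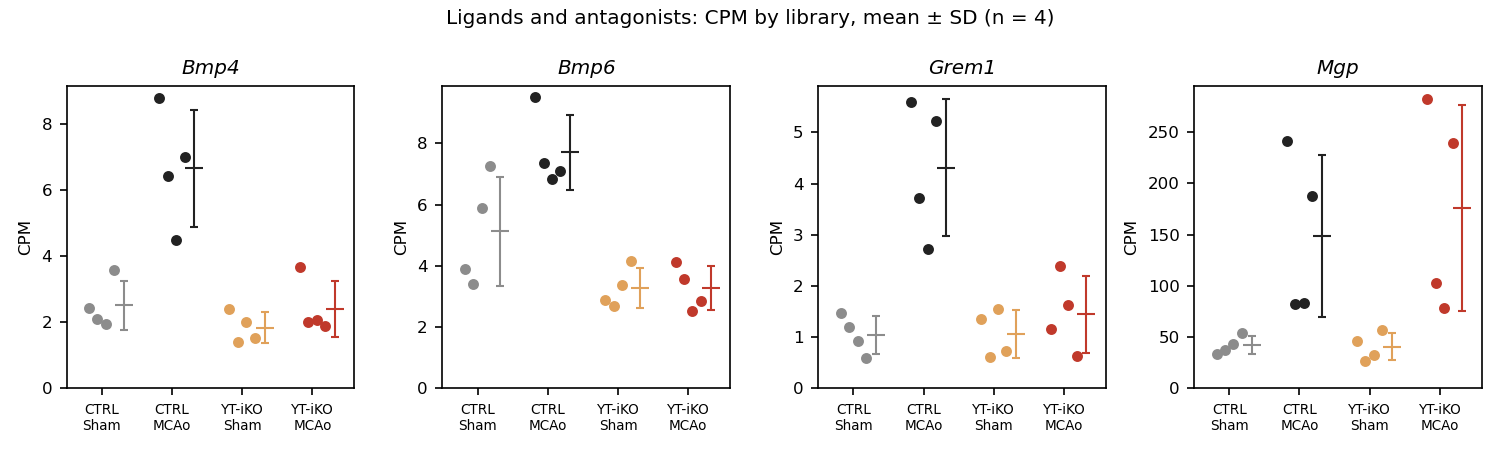
CPM of Bmp4, Bmp6, Grem1 and Mgp (y axes, linear from 0) in each library of the 4 groups; dots are libraries, and the bar beside them is the mean ± SD (n = 4). Bmp4 and Grem1 are highest in the 4 CTRL MCAo libraries, whereas Mgp is higher after MCAo in both genotypes.

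The call for Bmp4 after MCAo sat at the edge of the threshold. Bmp4 was called in MCAo against sham of CTRL bECs under 8 of the 9 other settings (adjusted p from 3.2e-04 to 0.097) and in 5 of the 16 fits that left out 1 library, and between genotypes after MCAo by DESeq2 (adjusted p = 0.0027), limma-voom (0.0019), edgeR with the receptor share as a covariate (0.0017) and edgeR without YT-iKO MCAo replicate 1 (0.0675). Over both genotypes the call was lost in 9 such fits, without CTRL Sham replicates 1, 2 or 3, CTRL MCAo 1, 2 or 4, YT-iKO Sham 2 or 4 or YT-iKO MCAo 1 (adjusted p from 0.172 to 0.282), and also with no filter on low counts (0.109).

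Bmp6, a ligand known in endothelium above all for its release by liver sinusoidal cells to control iron metabolism, was at 3.89, 3.42, 5.91 and 7.28 CPM in CTRL sham and 9.53, 7.37, 6.85 and 7.11 CPM in CTRL MCAo libraries. In YT-iKO bECs it was at 2.89, 2.697, 3.37 and 4.15 CPM after sham and 4.11, 3.57, 2.53 and 2.87 CPM after MCAo. The 2 genotypes overlapped after sham and were apart after MCAo. Over both operations Bmp6 was called lower in YT-iKO bECs, with a log2 fold change of -0.94 ± 0.20 against CTRL (edgeR, adjusted p = 0.0556), and it was the only member among the 87 genes called there, which are 0.28% of the genes tested (0.257% called lower). Bmp4 had a log2 fold change of -0.96 ± 0.24 there and was not called by edgeR (adjusted p = 0.149). It was called in 5 of 8 other settings and in 3 of 16 fits with 1 library left out. DESeq2 (adjusted p = 0.0050) and limma-voom (0.0062) were among these settings, beside 0.581% and 2.4% of all genes each tested. With each operation taken singly, the genotype difference of Bmp6 was -0.64 ± 0.28 after sham (adjusted p = 0.990, exact p = 0.114) and -1.23 ± 0.28 after MCAo (adjusted p = 0.267, exact p = 0.0286). With 1 library left out the value after sham ran from -0.81 to -0.41.

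Between operations Bmp6 was not called by edgeR. In CTRL bECs the log2 fold change after MCAo was 0.59 ± 0.28 (unadjusted p = 0.0463 and adjusted p = 1.00 by edgeR, exact p = 0.0857). Limma-voom called Bmp6 there (0.64, adjusted p = 0.0458), beside 24.2% of all genes tested. In YT-iKO bECs the mean level was 3.28 ± 0.65 CPM after sham and 3.27 ± 0.71 CPM after MCAo (exact p = 0.914). The genotype call of Bmp6 over both operations was lost in 6 of 16 fits with 1 library left out, without CTRL Sham 3 or 4, CTRL MCAo 1, 2 or 4 or YT-iKO MCAo 3 (adjusted p from 0.106 to 0.147), and with TMM factors from the abundant genes alone (0.106). Exons of Bmp6 share 224 bases (5.74% of their length) with Txndc5 on the opposite strand, and those of Bmp4 share 89 bases (3.96%) with Gm15217. As the library kit does not mark strand, reads from these stretches cannot be assigned to one gene.

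Grem1 rose after MCAo in CTRL bECs. Grem1, which encodes gremlin 1, an antagonist that binds BMP4 with high affinity, was at 1.47, 1.20, 0.933 and 0.585 CPM in CTRL sham and 5.59, 3.72, 2.71 and 5.23 CPM in CTRL MCAo libraries. In YT-iKO bECs it was at 1.35, 0.618, 1.56 and 0.725 CPM after sham and 1.15, 2.38, 1.62 and 0.623 CPM after MCAo. As with Bmp4, every CTRL MCAo library was above every library of the other groups, and those groups overlapped.

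The log2 fold change of Grem1 after MCAo was 2.03 ± 0.46 in CTRL bECs (edgeR, adjusted p = 0.0997, exact p = 0.0286), a fold of 4.09, and 0.44 ± 0.46 in YT-iKO bECs (adjusted p = 1.00, exact p = 0.486). With 1 library left out the value in YT-iKO bECs ran from 0.09 (without YT-iKO MCAo 2) to 0.68 (without YT-iKO MCAo 4). By limma-voom it was 0.91 (adjusted p = 0.124) and the difference of the response -0.88. With Mgp it was 1 of the 2 members among the 67 genes called in CTRL bECs (0.216% of genes tested, 0.183% called higher). Between genotypes after MCAo Grem1 differed by -1.58 ± 0.45 (adjusted p = 0.825, exact p = 0.0286). Over both genotypes it rose by 1.24 ± 0.32 (adjusted p = 0.0828), and the difference of the response was -1.60 ± 0.64 (unadjusted p = 0.0210, adjusted p = 1.00 by edgeR). The call in CTRL bECs was lost in 9 of 16 fits with 1 library left out, without any of the CTRL Sham libraries, CTRL MCAo 1, 2 or 4 or YT-iKO Sham 1 or 4 (adjusted p from 0.112 to 0.412). That over both genotypes was lost in 13, all but those without CTRL MCAo 3, YT-iKO Sham 3 or YT-iKO MCAo 4 (0.110 to 0.224).

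Reads of the ligands and of Grem1 were set against what an even background would give a gene of their exon length, a measure added after the data were seen. For Grem1 the expected count was 54.2% to 118.3% of the observed count in the 4 CTRL sham libraries, 48.4% to 126.1% in YT-iKO sham and 19.7% to 87.9% in YT-iKO MCAo, against 9.13% to 46.4% in CTRL MCAo. The sham levels of Grem1 were therefore near the background, and its fold change after MCAo is set by that floor. With the expected reads taken off, Grem1 was at 0.293 ± 0.320 CPM after sham and 3.40 ± 1.68 CPM after MCAo in CTRL bECs, and at 0.092 ± 0.408 and 0.491 ± 0.230 CPM in YT-iKO bECs (SD, n = 4).

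For Bmp4 the background was at most 44.9% of the reads, and for Bmp6 at most 53.0%. Less background, Bmp4 was at 2.10 ± 0.75 and 6.17 ± 1.95 CPM in CTRL bECs after sham and MCAo, and at 1.31 ± 0.50 and 1.89 ± 0.99 CPM in YT-iKO bECs. Bmp6 was at 4.42 ± 1.87 and 6.86 ± 1.496 CPM in CTRL bECs and at 2.37 ± 0.65 and 2.37 ± 0.99 CPM in YT-iKO bECs. All 3 genes kept CTRL and YT-iKO MCAo libraries apart on this scale (exact p = 0.0286 for each), and Bmp4 and Grem1 also the CTRL MCAo from the CTRL sham libraries (exact p = 0.0286 for each).

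**Figure D2:**
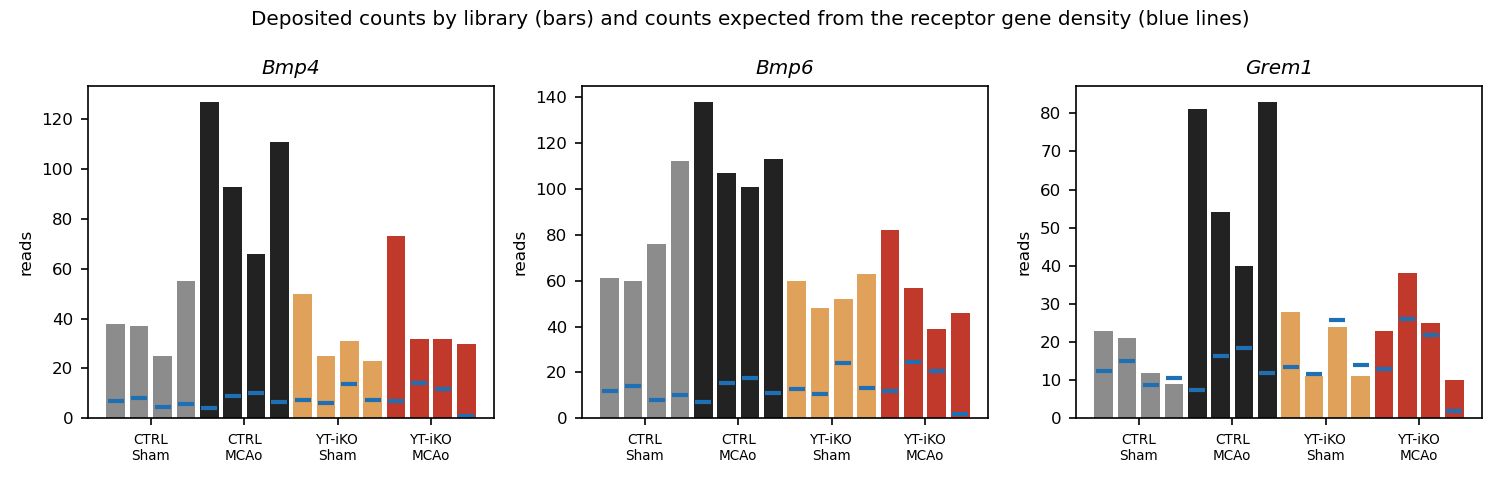
Deposited read counts of Bmp4, Bmp6 and Grem1 in each library (bars, y axis from 0, 4 libraries per group in order of replicate number) with the count expected from the receptor gene density and exon length (blue lines). In the sham libraries of both genotypes the Grem1 bars lie near the lines, and in CTRL MCAo they stand above them.

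Mgp rose after MCAo in both genotypes. Mgp, which encodes matrix Gla protein, an inhibitor of vascular calcification that binds BMPs, was at 33.6, 37.2, 43.1 and 53.8 CPM in CTRL sham and 241.1, 82.2, 83.2 and 187.7 CPM in CTRL MCAo libraries. In YT-iKO bECs it was at 46.3, 26.8, 33.0 and 56.6 CPM after sham and 282.4, 103.3, 78.7 and 239.7 CPM after MCAo. MCAo and sham libraries did not overlap in either genotype, and in each genotype 2 MCAo libraries, replicates 1 and 4, were well above the other 2. Those 4 high libraries had receptor gene densities of 0.0220 to 0.153 CPM per kb and the other 4 MCAo libraries 0.310 to 0.547, and the part of this in the spread was not tested. The log2 fold change was 1.83 ± 0.39 in CTRL bECs (edgeR, adjusted p = 0.0710), a fold of 3.55, and 2.11 ± 0.40 in YT-iKO bECs (adjusted p = 0.0197), a fold of 4.33, with an exact p of 0.0286 in each. Limma-voom with sample weights gave smaller log2 fold changes, 1.23 in CTRL and 1.12 in YT-iKO bECs (adjusted p = 0.0010 and 0.0281). Mgp was the only member among the 99 genes called in YT-iKO bECs (0.318% of genes tested, 0.277% called higher). Over both genotypes the log2 fold change was 1.97 ± 0.28 (adjusted p = 4.0e-04), and here Bmp4, Grem1 and Mgp were 3 members among 383 called genes (1.23% of genes tested, 0.933% called higher).

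The response of Mgp did not differ detectably between genotypes. The difference was 0.29 ± 0.54 on the log2 scale, with a 95% confidence interval from -0.83 to 1.41 (adjusted p = 1.00 by edgeR). The exact p between genotypes was 0.800 after sham and 0.657 after MCAo. The call in CTRL bECs was lost without CTRL Sham 1, 2 or 3 or CTRL MCAo 1 or 4 (adjusted p from 0.219 to 0.389), and that in YT-iKO bECs without YT-iKO Sham 2 or YT-iKO MCAo 1 (0.123 and 0.128) or when only the 2 groups compared were fitted (0.159).

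**Figure D3:**
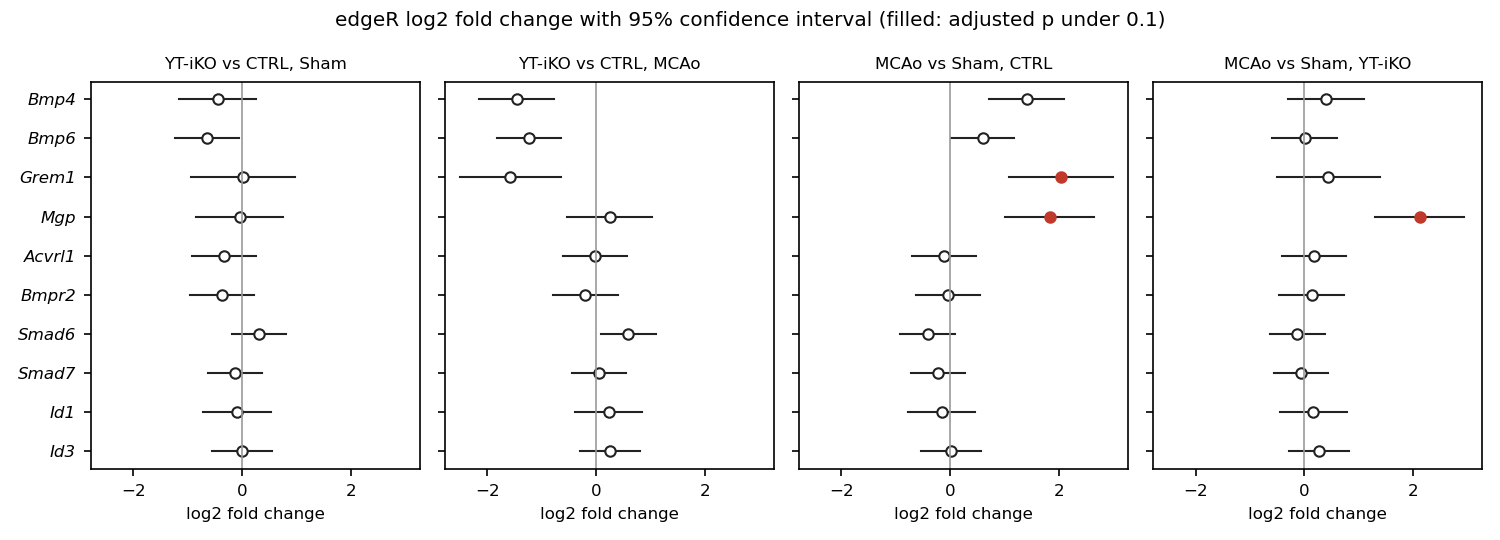
Log2 fold changes of the 10 members (edgeR) with 95% confidence intervals in 4 comparisons, x axis in log2 units; filled symbols have an adjusted p under 0.1. Grem1 and Mgp are filled for MCAo in CTRL, Mgp for MCAo in YT-iKO, and no member is filled between genotypes.

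The receptors were not called by edgeR in any comparison. Limma-voom called Acvrl1 for MCAo in CTRL bECs, beside 24.2% of all genes tested. It called both receptors for MCAo over both genotypes, beside 54.7% of all genes tested. Acvrl1, the type I receptor known as ALK1 that is largely restricted to endothelium, ranged from 605.4 to 720.9 CPM in CTRL sham libraries and 422.3 to 816.4 CPM after MCAo, and from 390.0 to 608.8 and 359.7 to 845.7 CPM in YT-iKO libraries. All 4 groups overlapped, although after sham only 1 YT-iKO library reached the CTRL range (exact p = 0.0571). Bmpr2, the type II receptor mutated in heritable pulmonary arterial hypertension, was at 1410, 1389, 1345 and 1355 CPM in CTRL sham and at 1322, 1059, 786.1 and 1085 CPM in YT-iKO sham libraries. These 2 groups did not overlap (exact p = 0.0286), with a log2 fold change of -0.37 ± 0.28 and an edgeR adjusted p of 0.990. All 10 endothelial markers had a log2 fold change below 0 in that comparison (median -0.32), with a summed level of 16420 to 17680 CPM in CTRL sham and 10140 to 17520 CPM in YT-iKO sham libraries, and their part in the values of Bmpr2 and Acvrl1 was not tested. Bmpr2 was the only 1 of 10 members whose groups were apart between genotypes after sham, where 3.85% of all genes tested did not overlap and 0.0965% were called. After MCAo it ranged from 903.0 to 1800 CPM in CTRL and from 675.4 to 1537 CPM in YT-iKO bECs (exact p = 0.514).

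Smad6 had a higher mean in YT-iKO bECs after both operations, and whether it was called depended on the scaling. This inhibitory SMAD, enriched in endothelium, was at 64.9, 65.4, 76.1 and 76.0 CPM in CTRL sham and 66.0, 50.2, 41.8 and 53.9 CPM in CTRL MCAo libraries. In YT-iKO bECs it was at 119.3, 92.9, 54.0 and 83.9 CPM after sham and 109.6, 57.9, 62.0 and 89.4 CPM after MCAo. The genotypes overlapped in both operations, by 1 YT-iKO library after sham and by 2 after MCAo. The log2 fold change was 0.31 ± 0.24 after sham (exact p = 0.314) and 0.59 ± 0.24 after MCAo (exact p = 0.0857), and 0.45 ± 0.17 over both operations (edgeR, unadjusted p = 0.0157, adjusted p = 1.00). Without YT-iKO MCAo replicate 1 the value after MCAo was 0.31, and without YT-iKO Sham replicate 1 that after sham was 0.15. Summed levels of 6 arterial endothelial markers were 369.1 to 434.3 CPM in CTRL sham and 283.3 to 504.9 CPM in YT-iKO sham libraries, and 214.9 to 441.6 and 340.8 to 680.0 CPM after MCAo. Over the 16 libraries they had a correlation with Smad6 of r = 0.810 (log2 CPM, given as a description). For other members it was 0.893 (Id3), 0.846 (Id1), 0.734 (Acvrl1), 0.627 (Smad7), 0.572 (Bmpr2) and 0.388 (Mgp). It was -0.226 for Bmp4, -0.273 for Bmp6 and -0.443 for Grem1. The part of the arterial markers in the values of Smad6 was not tested.

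With TMM factors computed from abundant genes alone (a mean of 10 CPM or more), Smad6 was at 52.9 ± 4.1 CPM in CTRL MCAo and 79.1 ± 12.8 CPM in YT-iKO MCAo libraries, which then did not overlap (exact p = 0.0286). On that scale it was called by edgeR after MCAo (0.58, adjusted p = 0.0405) and over both operations (0.51, adjusted p = 0.0036). All genes called there numbered 181 and 552, against 22 and 87 on the main scale. Smad6 was also called over both operations by edgeR with the receptor share as a covariate (adjusted p = 0.0192) and by limma-voom (0.0905). These settings called 773 and 746 genes in all. The scale with abundant genes moved the median log2 fold change of all genes by 0.044 between genotypes after MCAo. It moved that median by 0.19 between genotypes after sham and 0.12 over both operations. For MCAo in CTRL the move was 0.14, and for the difference of the response -0.14. After MCAo in CTRL bECs Smad6 had a log2 fold change of -0.41 ± 0.24 (adjusted p = 1.00 by edgeR, exact p = 0.0857). On the scale with abundant genes its sham and MCAo libraries did not overlap there (66.0 ± 6.0 and 52.9 ± 4.1 CPM, exact p = 0.0286), though edgeR did not call it (adjusted p = 0.383). Limma-voom called Smad6 lower after MCAo in CTRL bECs (-0.51, adjusted p = 0.0278), beside 24.2% of all genes tested.

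Smad7, Id1 and Id3 were not called by edgeR in any comparison either. Limma-voom called Smad7 for MCAo in CTRL bECs, where it called 24.2% of all genes tested. Over both genotypes it called Smad7 and Id1 for MCAo, beside 54.7% of all genes tested. Smad7, the inhibitory SMAD that acts on both BMP and TGF-β receptors, ranged from 226.8 to 306.4 CPM in CTRL sham libraries and 180.5 to 270.9 CPM after MCAo, and from 202.0 to 292.6 and 159.0 to 339.8 CPM in YT-iKO libraries. Id1, an inhibitor of basic helix-loop-helix factors and a standard readout of BMP signalling, was at 138.7, 168.4, 165.7 and 171.9 CPM in CTRL sham and 197.3, 138.7, 87.7 and 152.6 CPM in CTRL MCAo libraries. In YT-iKO bECs Id1 was at 168.2, 139.0, 108.6 and 188.6 CPM after sham and 263.5, 86.7, 119.7 and 206.0 CPM after MCAo. The groups overlapped throughout, and the MCAo libraries of each genotype held both the highest and the lowest values. Id3, its close relative, had means of 119.4 ± 15.2 and 120.9 ± 34.3 CPM in CTRL bECs after sham and MCAo and of 119.1 ± 27.3 and 143.6 ± 54.2 CPM in YT-iKO bECs.

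For Smad7, Id1, Id3, Acvrl1 and Bmpr2 together, log2 fold changes lay between -0.37 and 0.25 in the genotype comparisons and between -0.23 and 0.27 in the MCAo comparisons of each genotype. Their 95% confidence intervals reached from -0.96 to 0.85 and from -0.78 to 0.82, so that changes of up to nearly 1 on the log2 scale were not excluded by these libraries.

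**Figure D4:**
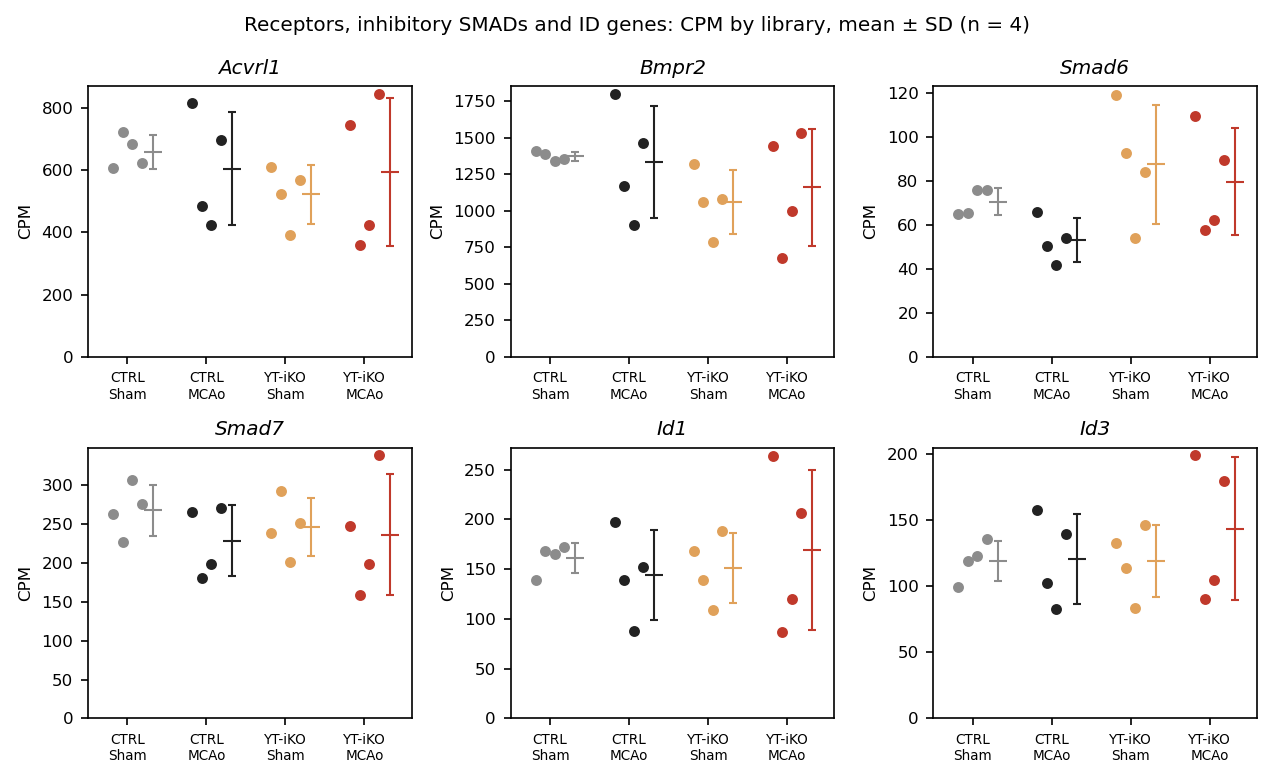
CPM of Acvrl1, Bmpr2, Smad6, Smad7, Id1 and Id3 (y axes, linear from 0) in each library of the 4 groups; dots are libraries, and the bar beside them is the mean ± SD (n = 4). The 4 CTRL sham libraries lie close together, whereas the other groups spread more widely in most panels.

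On the main TMM scale these members varied among themselves with the state of the library. Over 16 libraries, Acvrl1 and Bmpr2 had a correlation of log2 CPM of r = 0.948, and Id1 and Id3 of r = 0.937; with group means taken off these were 0.954 and 0.968. Within groups, the correlation with the share of reads on sensory receptor genes was -0.905 for Smad7, -0.896 for Acvrl1, -0.850 for Bmpr2, -0.790 for Id3, -0.737 for Id1, -0.737 for Smad6 and -0.694 for Mgp. On this scale, libraries with more background reads had less of these genes. The same correlation was -0.176 for Bmp4, -0.0625 for Bmp6 and 0.422 for Grem1. These correlations share library, depth and pool and are given as a description. With TMM factors from abundant genes alone, Smad7 was at 218.0, 214.4, 244.4 and 249.4 CPM in YT-iKO MCAo replicates 1 to 4. Acvrl1 was at 655.4, 484.8, 520.0 and 620.6 CPM there, and the receptor gene densities were 0.134, 0.547, 0.423 and 0.0220 CPM per kb. The SD of that group was 17.9 CPM for Smad7 (78.0 on the main scale), 80.8 for Acvrl1 (238.6) and 160.1 for Bmpr2 (401.3).

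**Figure D5:**
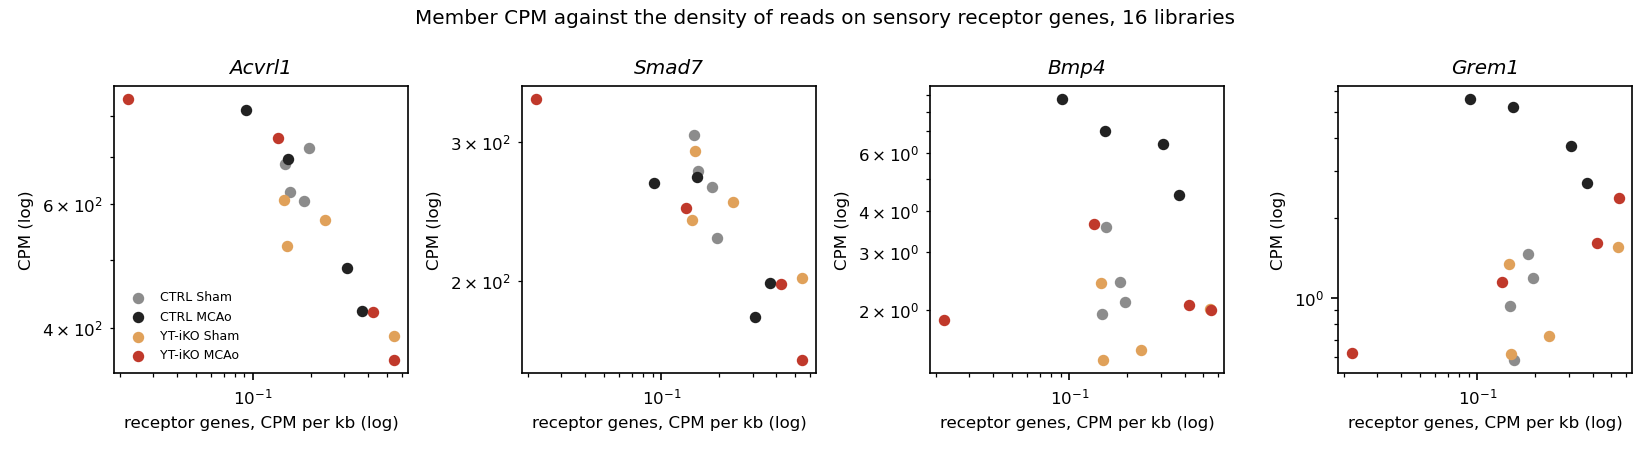
CPM of Acvrl1, Smad7, Bmp4 and Grem1 (y axes, log) against the density of reads on olfactory, vomeronasal and taste receptor genes (x axes, CPM per kb, log) in the 16 libraries, coloured by group. On this TMM scale Acvrl1 and Smad7 are lower where the density is higher over the 16 libraries. For Bmp4 the 4 CTRL MCAo libraries stand above the others at any density. Values scaled by abundant genes alone, on which the course of Smad7 depends, are given in the text.

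Among the members, Bmp4 had its highest correlations with Bmp6 (r = 0.835 over 16 libraries, 0.511 with group means taken off) and Grem1 (r = 0.832 and 0.297), so that likeness between Bmp4 and Grem1 lay more between groups than between libraries of a group. Over the 9132 genes whose mean reached 10 CPM, the genes most like Bmp4 were Arhgap20 (r = 0.916), Adgrg6 (r = 0.908) and Bgn (r = 0.885). Of these, Arhgap20 and Adgrg6 were also the most like Grem1 (r = 0.866 and 0.851), followed by C4b (r = 0.793). For Bmp6 they were Tlcd3b (r = 0.866), Aplp1 (r = 0.827) and Parva (r = 0.825), and for Id1 they were Dctn3 (r = 0.948), Tm9sf2 (r = 0.942) and the member Id3 (r = 0.937).

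Other genes of the pathway showed few calls. Of 11 further ligands, 14 antagonists and modulators, 9 receptors and co-receptors, 6 SMADs and SMAD ligases and 6 response genes, none was called in the genotype comparisons, in MCAo of either genotype or in the difference of the response by edgeR. At an unadjusted p under 0.05 there were 3 of them between genotypes after sham, 5 each for MCAo in CTRL and in YT-iKO bECs, 4 between genotypes over both operations, 10 for MCAo over both genotypes, and 0 between genotypes after MCAo and in the difference of the response. The shares of all genes tested at that p were 2.16% after sham, 3.5% and 3.01% for MCAo in CTRL and in YT-iKO bECs, 3.24% over both operations, 5.82% for MCAo over both genotypes, 1.49% between genotypes after MCAo and 0.373% in the difference. DESeq2 called Smad1 for MCAo in CTRL (beside 0.549% of all genes), Fstl1 for MCAo in YT-iKO (0.646%) and Eng between genotypes over both operations (0.581%). For MCAo over both genotypes it called Fstl1, Crim1, Smad1 and Smad9, beside 2.07% of all genes. Limma-voom called from 0 (the difference of the response, where it called 0% of all genes tested) to 26 of the 46 (MCAo over both genotypes, with 54.7%). All 11 other ligands had a mean of at most 2.45 CPM, with Bmp7 the highest. Their median log2 fold change between genotypes was 0.71 after sham, beside 0.11 over all genes tested, and 0.01 after MCAo, beside 0.03. Their summed level after sham was 11.9 to 15.5 CPM in CTRL libraries and 12.6, 12.5, 33.7 and 18.2 CPM in YT-iKO libraries, highest in replicate 3, which had the highest receptor gene density of the sham libraries (0.542 CPM per kb). Neuron markers (median 0.67) and neutrophil and monocyte markers (0.73) had a like shift after sham, and the part of background reads in it was not tested. For MCAo it was 0.33 in CTRL, beside 0.07, and -0.07 in YT-iKO, beside -0.02, and for the difference of the response -0.65, beside -0.02. Over both genotypes, 3 of the 46 genes were called after MCAo by edgeR, beside 1.23% of all genes tested. Fstl1, a secreted follistatin-like glycoprotein, rose by 1.01 ± 0.25 on the log2 scale (adjusted p = 0.0628; 0.42 by limma-voom), and Smad1, a receptor-activated SMAD, rose by 0.86 ± 0.19 (adjusted p = 0.0251; 0.42 by limma-voom). Smad9, another receptor-activated SMAD, fell by 0.64 ± 0.17 (adjusted p = 0.0885, the edgeR test in each case).

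The means of Smad1 were 82.1 ± 5.9 and 151.9 ± 43.7 CPM in CTRL bECs after sham and MCAo, and 68.8 ± 10.2 and 122.6 ± 55.2 CPM in YT-iKO bECs. Eng, which encodes the co-receptor endoglin and had the highest level of the other receptors, was at 1240 ± 61.9 and 1206 ± 357 CPM in CTRL bECs and 661.5 ± 173 and 881.7 ± 342 CPM in YT-iKO bECs. Its genotype difference was -0.91 ± 0.30 after sham (adjusted p = 0.990) and -0.68 ± 0.21 over both operations (adjusted p = 0.574 by edgeR). Under other settings Eng was called after sham in 4 of 9 (adjusted p from 0.0055 to 0.0407) and over both operations in 5 of 8 (6.6e-05 to 0.0852). Those 4 settings called 115 to 144 of all genes after sham, where the main fit called 30. With 1 library left out Eng was called in 0 of 16 fits in either comparison (lowest edgeR adjusted p 0.618 and 0.101). The 10 endothelial markers were also lower after sham (median -0.32), and their part in the values of Eng was not tested. Hey1, a Notch and BMP target with the highest level of the other response genes, had a log2 fold change of 0.51 ± 0.25 between genotypes after MCAo (adjusted p = 1.00 by edgeR). With 1 library left out this value of Hey1 ran from 0.20 to 0.65. Single libraries carried some of these calls: that of Smad1 was lost without CTRL MCAo 4 (0.103), that of Fstl1 in 9 of 16 fits (0.102 to 0.187; without CTRL Sham 1, 2 or 3, CTRL MCAo 1 or 4, YT-iKO Sham 1, 2 or 4 or YT-iKO MCAo 1), and that of Smad9 in 8 (0.102 to 0.213; without CTRL Sham 2 or 4, CTRL MCAo 2 or 4, YT-iKO Sham 1, 2 or 4 or YT-iKO MCAo 3).

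Markers of other cell types and of venous endothelium were compared between operations as well. The summed level of 8 fibroblast markers was 29.5 to 38.0 CPM in CTRL libraries after sham and 47.5 to 65.0 CPM after MCAo, and 30.6 to 63.8 and 36.1 to 62.2 CPM in those of YT-iKO mice, with at most 1 marker at 0 in a library. The log2 fold change after MCAo was above 0 for 7 of the 8 in CTRL bECs (median 0.77) and for 5 in YT-iKO bECs (median 0.37). By edgeR none of the 8 was called in CTRL or YT-iKO bECs taken singly. At an unadjusted p under 0.05 there were 5 and 3, beside 3.5% and 3.01% of all genes tested. Over both genotypes edgeR called 2 higher, beside 0.933%. DESeq2 called Dcn alone in each genotype, beside 0.549% of all genes in CTRL and 0.646% in YT-iKO bECs. Limma-voom called 6 in CTRL and 4 in YT-iKO bECs, beside 24.2% and 18.1% of all genes tested. Summed venous endothelial markers were 1316 to 1664 CPM after sham and 3161 to 7603 CPM after MCAo in CTRL libraries. In those of YT-iKO mice they were 870.1 to 1110 and 2130 to 7142 CPM. Most of this sum was Vwf, at 1046 to 1392 and 2882 to 6965 CPM in CTRL libraries after sham and MCAo. In YT-iKO libraries Vwf was at 678.7 to 868.7 and 1924 to 6614 CPM. EdgeR called 2 of the 6 higher in each genotype, beside 0.183% (CTRL) and 0.277% (YT-iKO) of all genes tested. Pericyte markers had a log2 fold change after MCAo above 0 for 7 of 8 in each genotype (median 0.47 in CTRL and 0.57 in YT-iKO bECs). EdgeR called none of these 8 in any comparison. Their summed level was 740.9 to 932.2 CPM after sham and 553.8 to 1491 CPM after MCAo in CTRL libraries, and 541.1 to 855.3 and 491.1 to 1158 CPM in those of YT-iKO mice. Within groups the summed pericyte level had a correlation of 0.671 with Mgp, 0.644 with Bmp4 and -0.111 with Grem1. For the venous list, whose sum is mostly Vwf, these values were 0.918, 0.459 and -0.205, and for the fibroblast list -0.25, 0.244 and 0.458. For neutrophil and monocyte markers the log2 fold change after MCAo was above 0 for 7 of 7 in CTRL bECs (median 0.43) and for 3 in YT-iKO bECs (median -0.23), with a summed level of at most 20.8 CPM in a library. None of these 7 was called by edgeR in any comparison. The part of any of these lists in the values of Mgp, Grem1 and Bmp4 after MCAo was not tested. In bulk libraries, fewer cells of a type and less RNA per cell cannot be told apart.

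Over the 10 members, no gene was called between genotypes after sham, where 0.0965% of genes tested were, or after MCAo, where 0.0708% were, or in the difference of the MCAo response, where 0% were. At an unadjusted p under 0.05 these comparisons held 670, 464 and 116 genes (2.16%, 1.49% and 0.373% of those tested), with Bmp6 the only member after sham, Bmp4, Bmp6, Grem1 and Smad6 after MCAo, and Bmp4 and Grem1 in the difference. DESeq2 and limma-voom called no member after sham or in the difference, while after MCAo DESeq2 called Bmp4, Bmp6 and Grem1, and limma-voom Bmp4 and Bmp6, among 78 and 257 genes called in all (0.211% and 0.827% of those each tested). The groups did not overlap for 3 members between genotypes after MCAo, against 0.981% of all genes, for 3 in MCAo of CTRL bECs, against 4.14%, and for 1 in MCAo of YT-iKO bECs, against 1.28%.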

How the data were processed

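Paired-end reads had been mapped by the authors with STAR 2.7.8a to GRCm38 p5 with GENCODE M12. The deposited file holds raw counts per gene, whole numbers without normalization; the counting program, its use of strand and how the 37003 genes were selected are not given in the sources used here. Totals of 11418262 to 23074547 counts per library set the precision. Genes were located with GENCODE M21.

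Counts were tested with edgeR 4.0.16 (quasi-likelihood, TMM, filterByExpr at its settings of 10 counts and a total of 15, 4 groups in 1 model; 31085 genes tested, Benjamini-Hochberg over all of them) in R 4.3.3. Single values were tested exactly on log2(CPM + 1). Alternatives were DESeq2 1.42.0, limma 3.58.1 (voom), other scalings and filters, a threshold of 0.05, only the groups compared, a replicate block, the receptor share as a covariate, a pseudocount of 0.1 and each library left out. The script was tested on simulated data.

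Named were all 10 members, called genes of the pathway lists or else the most abundant of a list, the targeted genes and the 3 genes most like Bmp4, Bmp6, Grem1 and Id1. The members and lists were chosen with earlier results of these data known.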

Additional observations from a re-analysis of the deposited data

Results flagged for a closer look

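In 1 of 40 sets of 4 libraries (10 members in 4 groups), 1 library stood far from the rest: Bmp4 was at 3.66 CPM in YT-iKO MCAo replicate 1, and the other 3 libraries of that group were at 1.87 to 2.07 CPM. Its gap to the nearest library was 0.887 of the range of the group, above Dixon's 95% critical value. Chance alone flags about 1 in 20 such sets. Without this library the log2 fold change of Bmp4 between genotypes after MCAo was -1.81 (edgeR, adjusted p = 0.0675).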

How the results depend on the processing

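Of 70 pairs of a member and a comparison, 32 changed sign in at least 1 alternative, none of them called by the edgeR test reported above. The signed fold changes of a chosen set of 31 pairs of named gene and comparison were recomputed 761 times. This set left out pairs near 0, such as Bmp6 for MCAo in YT-iKO bECs (0.0021) and Grem1 between genotypes after sham (0.020). It also left out every pair of Smad7, Id1, Id3, Acvrl1 and Bmpr2. All 761 values kept their direction, which therefore does not speak for the pairs left out. Of the 761, 650 kept their side of the threshold, 65 lost a call and 46 gained one. No member was called between genotypes after sham or in the difference of the MCAo response under any alternative run. Members called between genotypes after MCAo numbered 0, and 1 with TMM factors from abundant genes (Smad6), 3 with DESeq2 and 3 with the receptor share as a covariate (Bmp4, Bmp6 and Grem1 in both), 2 with limma-voom (Bmp4 and Bmp6), and 0 to 1 with 1 library left out (1 without YT-iKO MCAo 1). For MCAo in CTRL the 2 members became 7 with limma-voom, 0 at an adjusted p under 0.05 and 0 to 3 with 1 library left out (0 without CTRL Sham 1, 2 or 3 or CTRL MCAo 1 or 4, and Mgp alone without CTRL Sham 4, CTRL MCAo 2 or YT-iKO Sham 1 or 4). For MCAo in YT-iKO the 1 member became 2 with limma-voom, 0 with only the groups compared and 0 to 1 with 1 library left out (0 without YT-iKO Sham 2 or YT-iKO MCAo 1). Over both operations the 1 member called (Bmp6) became 2 with a stricter filter (more than 1 CPM in 4 or more libraries), 2 with DESeq2, 3 with limma-voom, 0 at an adjusted p under 0.05, 4 with the receptor share and, with TMM factors from abundant genes, Smad6 in place of Bmp6, and 0 to 2 with 1 library left out (0 without CTRL Sham 3 or 4, CTRL MCAo 1, 2 or 4 or YT-iKO MCAo 3; 2 without CTRL MCAo 3 or YT-iKO MCAo 1 or 4). Over both genotypes the 3 members became 8 with limma-voom, 1 at an adjusted p under 0.05 and 1 to 3 with 1 library left out (Mgp alone without CTRL Sham 1, 2 or 3, CTRL MCAo 1, 2 or 4, YT-iKO Sham 2 or 4 or YT-iKO MCAo 1). Limma-voom called 7538, 5626 and 17018 of all genes for MCAo in CTRL, in YT-iKO and over both, where edgeR called 67, 99 and 383. Between genotypes after MCAo the main fit called 22 genes in all. TMM factors from abundant genes gave 181 there, DESeq2 78, the receptor share 264 and limma-voom 257. Over both operations the main fit called 87 genes. The stricter filter gave 160, DESeq2 215, limma-voom 746, the receptor share 773 and TMM factors from abundant genes 552. The causes were not tested. The pseudocount of 0.1, the scaling by abundant genes and the removal of background reads left the count of exact tests at the smallest p within 1.5 times of that reported.

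With the replicate number as a block, 2 members (Bmp4 and Bmp6) were called between genotypes over both operations, and 3 for MCAo in CTRL; all genes called there went from 87 to 149 and from 67 to 119. Libraries of the same number in different groups correlated at a median of 0.323 over 24 pairs, with 16 above 0.1, and those of different numbers at -0.136 over 72 pairs, with 29 above 0.1. This is a hint in the data of likeness tied to the number. As 8 same-number pairs did not pass 0.1 and no label ties a number to a shared litter, batch or day, the numbers were not treated as pairs. The ligands and Grem1, at 9 to 138 reads per library, are limited by depth.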
